A study of Mus musculus with 12 samples.

Results

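The 9 genes described here encode enzymes that make, recycle or break down the deoxynucleoside triphosphates (dNTPs) used for DNA synthesis: Rrm1, Rrm2, Rrm2b, Tyms, Dut, Dctd, Tk1, Dck and Samhd1. They were chosen by name as rows of the deposited count table, and all 9 were found among its 24100 genes. RNA was sequenced from SV40-immortalized mouse embryonic fibroblasts (MEFs) of 2 genotypes, WT (Rtf2+/+) and RTF2-deficient (Rtf2-/lox), each in 2 lines. Cells of both genotypes had received Hit & Run pMMP Cre by retrovirus 72 hrs before harvest, so the WT cells were exposed to Cre as well. The RTF2-deficient cells began with 1 null allele and 1 floxed allele. Each line and genotype gave 3 technical replicates, which makes 4 groups and 12 libraries. The p-values below therefore measure the spread between such libraries, and the 2 lines are the only biological replicates. The WT and RTF2-deficient cells of a line differ in their starting genotype, so they are separate MEF cultures. Within each line, genotype and the origin of the culture cannot be told apart.

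RTF2 is a replisome component, and the study asked what its loss does to DNA replication, which makes the genes that feed replication a natural set to examine. In mammalian cells, ribonucleotide reductase converts ribonucleotides to deoxyribonucleotides with a large catalytic subunit (Rrm1) and a small radical-bearing subunit, which is either Rrm2 in S phase or the p53-inducible Rrm2b outside it. Thymidylate is made from dUMP by thymidylate synthase (Tyms), and dUMP comes from the hydrolysis of dUTP (Dut) and the deamination of dCMP (Dctd). The salvage kinases Tk1 and Dck phosphorylate nucleosides taken up or recovered by the cell, and Samhd1 cleaves dNTPs back to nucleosides. Transcripts of several of these genes, among them Rrm2, Tyms and Tk1, are known to rise as cells enter S phase.

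Library totals lay between 39360167 and 44695002 counts, and each member had between 726 and 21604 counts in every library. Rtf2 itself lay between 44.8 and 57.8 CPM (counts per 1000000 of the library's TMM-scaled total) in the 6 WT libraries and between 5.44 and 6.66 in the 6 RTF2-deficient libraries, a log2 fold change of -3.01 (SE 0.0567, edgeR adjusted p = 2.45e-11). All 6 fibroblast markers, such as Col1a1 and Vim, were above 1 CPM in all 12 libraries and edgeR called 0 of them between genotypes over both lines (1 at an unadjusted p under 0.05; DESeq2 called 1), with Pdgfra at a log2 fold change of -1.0 over both (adjusted p = 0.0714) and -1.45 in line 2 (adjusted p = 0.0583). Cd3e was at 0 in all of them, and Ptprc, Pecam1 and Epcam stayed at or below 0.308 CPM. Cd68, one of the 3 blood and immune markers in the table, lay between 1.44 and 8.95 CPM and was lower in RTF2-deficient than in WT MEFs of line 2 (log2 fold change -1.07, edgeR adjusted p = 0.00809). Of the endothelial markers, Kdr lay between 6.71 and 15.2 CPM and was higher in RTF2-deficient MEFs over both lines (0.58, adjusted p = 0.0492), and Cdh5 was at most at 0.231 CPM. Of the epithelial markers, Cdh1 reached 2.997 CPM and was above 1 CPM in 3 libraries. The part of these differences in the results below was not tested. Ddx3y, a Y-linked gene, was at 91.8 to 107 CPM in WT line 2 and at most at 0.195 CPM in the other 9 libraries, and Xist was at most at 0.132 CPM in WT line 2 and at least at 102.9 CPM elsewhere. Within line 2, genotype and this sex-linked difference cannot be told apart.

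The libraries also differed in the level of interferon-stimulated genes, read here as the median log2 CPM of 15 such genes. In WT line 2 this level was 8.80, 5.18 and 7.14 in replicates 1 to 3, against 4.47, 1.34 and 3.04 in WT line 1. In RTF2-deficient line 1 it was 2.65, 1.26 and 1.69, and in RTF2-deficient line 2 it was 2.75, 3.59 and 7.58. The 2 WT lines did not overlap in this level, while the genotypes overlapped within each line, and the estimates are also given below without the library that held the highest value of its group.

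None of the 9 genes passed the test for a difference with RTF2 loss when both lines were fitted together, although the 95% interval of Tk1 lay below its WT level. edgeR's quasi-likelihood test with terms for line and genotype called 0 of 9 at a Benjamini-Hochberg adjusted p under 0.05, against 13.2% of all 14263 genes tested (1878 genes, 1167 lower and 711 higher in RTF2-deficient MEFs). At an unadjusted p under 0.05 the test called 1 of 9, Tk1, against 28.5% of all genes, and DESeq2 gave the same counts of 0 and 1, against 18.9% and 30.5%. The median log2 fold change of the 9 genes was -0.05, and that of all genes was 0.00. For 6 of the 9 genes (Rrm1, Rrm2, Rrm2b, Tyms, Dck and Dut) the 95% interval of the fold change lay between 84.9% and 119% of the WT level. The intervals of Dctd, Tk1 and Samhd1 were wider, reaching down to 82.3%, 61.2% and 64.7% of the WT level.

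**Figure D1:**
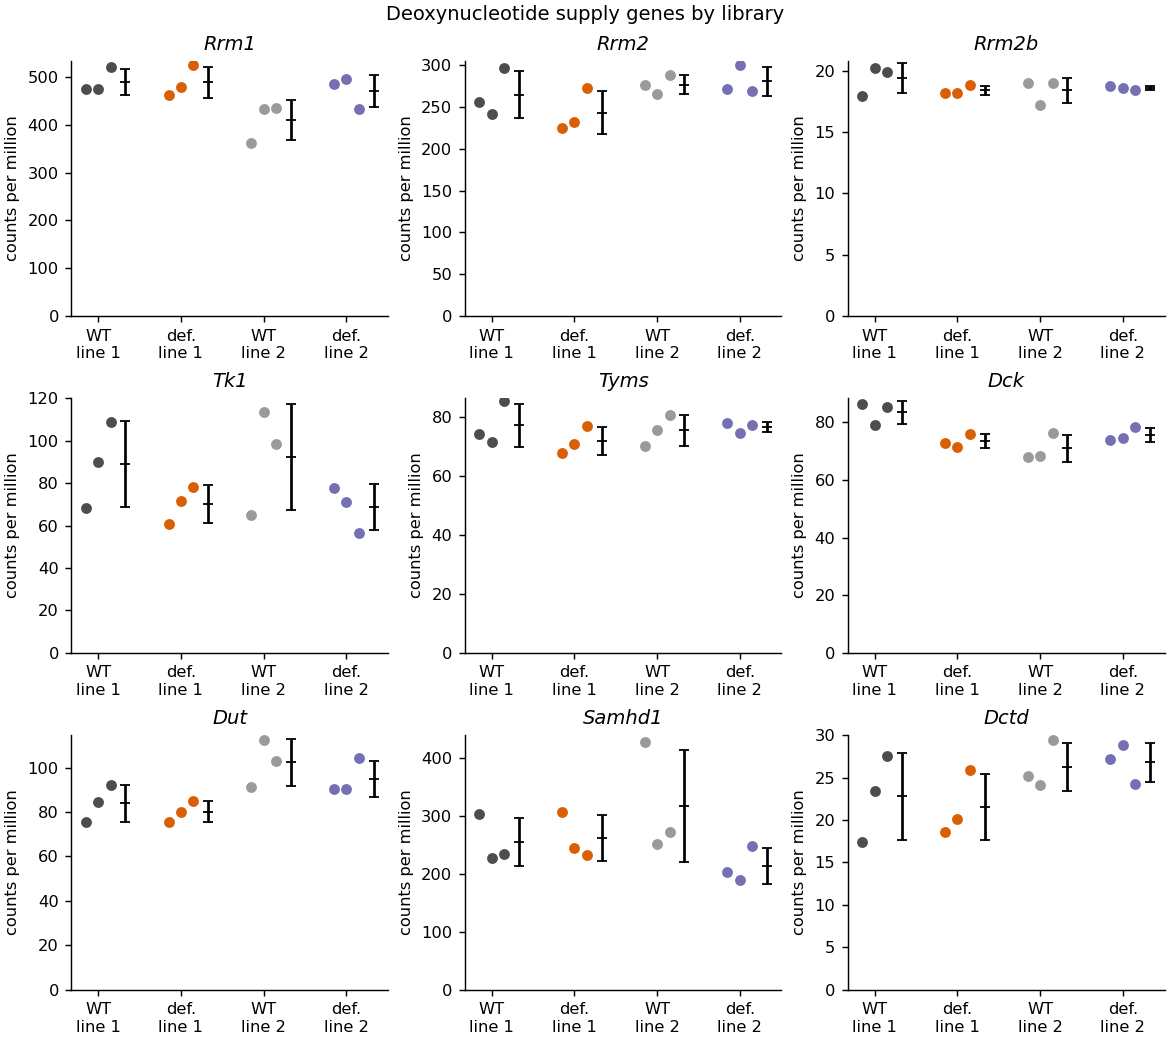
TMM-normalized CPM of each of the 9 genes (vertical axes, from 0) in the 3 libraries of each line and genotype ("def." is RTF2-deficient). Coloured points are libraries and black bars are the group mean with 1 SD. Most genes overlap between genotypes within each line, while Dck in line 1 and Samhd1 in line 2 do not.

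The promoters of Rrm1 and Rrm2 are shown because these genes encode the subunits of 1 enzyme and had the highest levels per length of the 9. Of the 9 genes, 8 matched an entry in the table of promoters taken from RefSeq's annotation of GRCm38.p6. The bases run 5′ to 3′ up to the first annotated exon of the gene, and capitals mark the CCAAT box (CCAAT) and the Sp1 box (GGGCGG) on either strand. The Rrm1 run covers chr7:102441445-102441694 and the Rrm2 run chr12:24708004-24708240, both on the plus strand.
Rrm1: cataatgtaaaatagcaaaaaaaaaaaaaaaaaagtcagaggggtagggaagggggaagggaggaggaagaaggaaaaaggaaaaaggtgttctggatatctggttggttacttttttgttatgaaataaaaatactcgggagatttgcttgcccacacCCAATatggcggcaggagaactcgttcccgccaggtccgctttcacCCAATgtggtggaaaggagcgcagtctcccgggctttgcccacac
Rrm2: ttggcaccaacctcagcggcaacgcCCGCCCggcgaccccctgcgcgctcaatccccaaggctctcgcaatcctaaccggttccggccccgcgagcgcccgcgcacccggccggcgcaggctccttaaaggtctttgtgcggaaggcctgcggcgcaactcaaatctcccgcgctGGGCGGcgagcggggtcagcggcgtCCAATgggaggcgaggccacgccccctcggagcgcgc
Rrm1 held 2 CCAAT boxes, which start 91 and 45 bases before the RefSeq start, and Rrm2 held 1, which starts 50 bases before it, and 2 Sp1 boxes, which start 225 and 75 bases before it. The printed Rrm2 run ends 13 bases before that start. Of all 32851 windows of 250 bases, 33.8% held a CCAAT box and 32.7% an Sp1 box. The E2F words TTTCCCGC, TTTCGCGC, TTTGCCGC and TTTGGCGC, which 1.86% of all windows held on either strand, were in none of the windows of the 8 genes. That says only that these letters are not in these windows, and shorter or other E2F-type words were not searched.

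The genes of ribonucleotide reductase were not called in either line or over both. Rrm1 was at 474, 475 and 521 CPM in WT line 1 and at 462.2, 478 and 525 CPM in RTF2-deficient line 1. The line 2 values were 362, 432 and 436 CPM in WT and 484, 495 and 433 CPM in RTF2-deficient MEFs. WT line 2 replicate 1 was the lowest of all 12 libraries, and the genotypes overlapped in both lines. The log2 fold change of Rrm1 was 0.10 (SE 0.0708, adjusted p = 0.391) over both lines, -0.00 in line 1 and 0.20 (adjusted p = 0.201) in line 2, where the interval was 99.3% to 133% of WT.

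Rrm2, the subunit that limits the enzyme in S phase, was at 256, 242 and 296 CPM in WT line 1 and at 225, 232 and 272 CPM in RTF2-deficient line 1. In line 2 its values were 276, 265 and 288 CPM in WT and 272, 301 and 269 CPM in RTF2-deficient MEFs. The 2 genotypes overlapped in each line, with 2 of the 3 RTF2-deficient libraries below every WT library in line 1 and 1 of 3 above in line 2. Its log2 fold change was -0.05 (SE 0.0695, adjusted p = 0.666), with an interval of 86.9% to 107% of WT.

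Rrm2b, the p53-inducible subunit, varied least of the 3. It lay between 17.2 and 20.3 CPM in the 6 WT libraries and between 18.1 and 18.8 CPM in the 6 RTF2-deficient libraries, which all fell inside the WT range. Its log2 fold change was -0.03 (SE 0.0519, adjusted p = 0.739). Exons of Rrm2b share 734 bases with the antisense gene Gm49085, and whether the counting used strand is not given in the sources used here, so reads of that stretch are uncertain.

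Per kilobase of the longest annotated transcript, Rrm2 was the highest of the 9 genes in these MEFs at 121 ± 10.9 CPM per kb (SD, n = 12 libraries), and Rrm2b was the lowest at 4.1 ± 0.182. The ratio of Rrm2 to Rrm2b on this scale lay between 24.8 and 33.6 over the 12 libraries, with a median of 30.2. The ratio of Rrm1 to Rrm2 was between 0.525 and 0.827. With the union of all annotated exons as the length, the first ratio lay between 39.4 and 53.2 and the second between 0.33 and 0.52, and with the longest coding transcript the second lay between 0.719 and 1.13. The ratios thus depend on the gene model, and which of Rrm1 and Rrm2 was higher in a single library depended on it as well.

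The genes of the thymidylate route showed no called change either. Tyms, which makes dTMP from dUMP, was at 74.1, 71.6 and 85.5 CPM in WT line 1 and at 67.7, 70.8 and 76.9 CPM in RTF2-deficient line 1. In line 2 it was at 70.2, 75.5 and 80.6 CPM in WT and at 78.0, 74.6 and 77.3 CPM in RTF2-deficient MEFs. The genotypes overlapped in both lines, and the log2 fold change over both was -0.04 (SE 0.0593, adjusted p = 0.695), with an interval of 88.9% to 106% of WT. Reads of Tyms could be shared with its processed pseudogene Tyms-ps, so its level is uncertain to that extent.

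Dut, which removes dUTP and supplies dUMP, was at 75.4, 84.3 and 92.2 CPM in WT line 1 and at 75.6, 80.0 and 84.8 CPM in RTF2-deficient line 1. In line 2, Dut was at 91.3, 113 and 103 CPM in WT and at 90.3, 90.5 and 105 CPM in RTF2-deficient MEFs. The RTF2-deficient libraries lay inside the WT range in line 1, and 2 of 3 lay below it in line 2. The log2 fold change of Dut was -0.09 (SE 0.0687, adjusted p = 0.43) over both lines.

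Dctd, which deaminates dCMP to dUMP, was among the most variable of the 9 genes within groups. It was at 17.4, 23.5 and 27.5 CPM in WT line 1 and at 18.6, 20.1 and 25.9 CPM in RTF2-deficient line 1. In line 2 it was at 25.2, 24.2 and 29.5 CPM in WT and at 27.3, 28.9 and 24.3 CPM in RTF2-deficient MEFs. All 6 RTF2-deficient libraries lay inside the WT range of their line. Its log2 fold change was -0.03 (SE 0.117, adjusted p = 0.906), with an interval of 82.3% to 117% of WT.

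Tk1, the cytosolic thymidine kinase, had the lowest estimate of the 9 genes over both lines and in line 1, while Samhd1 was lower in line 2. It was at 68.2, 90.0 and 109 CPM in WT line 1 and at 60.8, 71.4 and 78.2 CPM in RTF2-deficient line 1. In line 2 it was at 64.9, 113 and 98.6 CPM in WT and at 77.8, 71.2 and 56.7 CPM in RTF2-deficient MEFs. In each line only 1 of 3 RTF2-deficient libraries was below every WT library of that line, and the WT groups each had 1 library close to the RTF2-deficient values. In line 1, each RTF2-deficient library was below the WT library of the same replicate number, but not in line 2. Rrm2, Tyms and Dck did so in line 1 as well, and the other genes did not. With replicate number as a block, edgeR gave Tk1 -0.33 in line 1 (adjusted p = 0.527). The log2 fold change of Tk1 was -0.39 (SE 0.148, adjusted p = 0.111) over both lines, -0.34 in line 1 (adjusted p = 0.571) and -0.43 in line 2 (adjusted p = 0.225). With 1 library left out, the Tk1 estimate ranged from -0.495 to -0.175 in line 1 and from -0.622 to -0.253 in line 2. The 95% interval over both lines was 61.2% to 95.7% of WT, and a two-sided exact permutation test of 6 against 6 libraries gave an unadjusted p = 0.0455, where 0.00216 is the smallest possible. That test exchanges technical replicates across the lines and takes account of neither line nor replicate number. Of the 9 such tests, the others gave p between 0.171 and 0.905 by exact permutation. Exons of Tk1 share 83 bases with Afmid on the opposite strand.

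Dck, which phosphorylates deoxycytidine and other deoxynucleosides, was at 86.3, 78.9 and 85.3 CPM in WT line 1 and at 72.9, 71.4 and 76.1 CPM in RTF2-deficient line 1. The line 2 libraries held 68.1, 68.3 and 76.4 CPM in WT and 74.1, 74.5 and 78.3 CPM in RTF2-deficient MEFs. In line 1 every RTF2-deficient value was under the lowest WT value, while the groups overlapped in line 2. The log2 fold change was -0.19 in line 1 (SE 0.0669, adjusted p = 0.212), 0.09 in line 2 (SE 0.0669, adjusted p = 0.407) and -0.05 over both (SE 0.0605, adjusted p = 0.649). The difference between the lines' effects was 0.28 (SE 0.0946) with an adjusted p of 0.31 over all genes.

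Samhd1, the dNTP hydrolase, is a known interferon-inducible gene in several cell types. It was at 303, 228 and 234 CPM in WT line 1 and at 307, 245 and 233 CPM in RTF2-deficient line 1. In line 2, Samhd1 was at 428, 251 and 272 CPM in WT and at 203, 189 and 248 CPM in RTF2-deficient MEFs. The genotypes overlapped in line 1, whereas in line 2 the highest RTF2-deficient value was under the lowest WT value. The log2 fold change was -0.27 over both lines (SE 0.165, adjusted p = 0.311), 0.04 in line 1 (adjusted p = 0.967) and -0.57 in line 2 (SE 0.205, adjusted p = 0.0946). The difference between the lines' effects, -0.61 (SE 0.289), did not pass the test (adjusted p = 0.624). Without WT line 2 replicate 1 the Samhd1 estimate was -0.29 in line 2 and -0.11 over both lines (edgeR adjusted p = 0.598 over both).

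**Figure D2:**
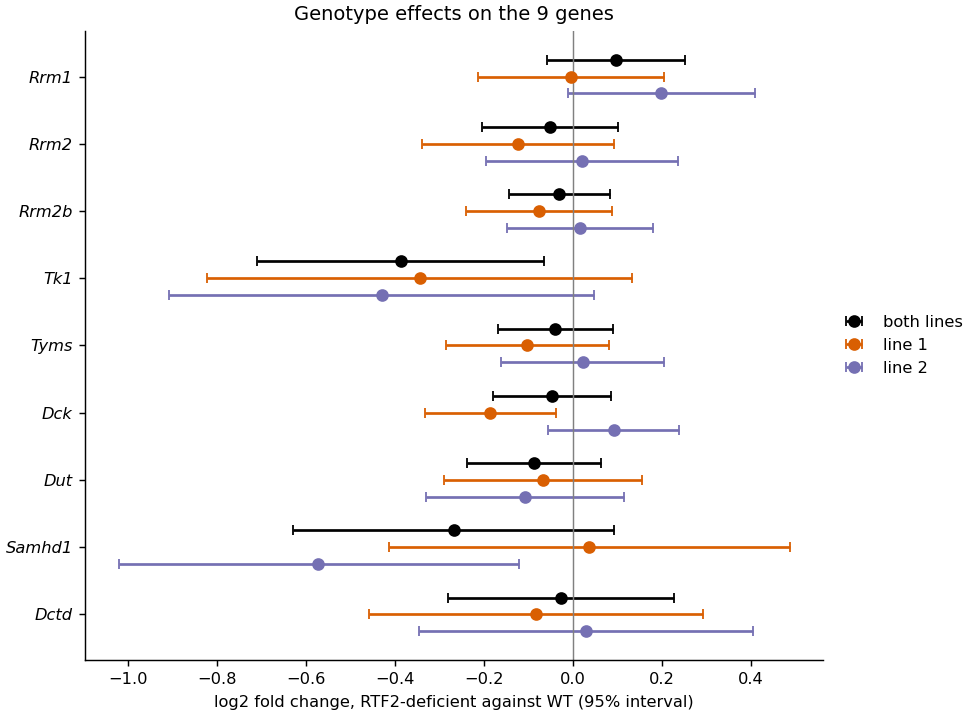
Log2 fold change of RTF2-deficient against WT MEFs for the 9 genes, over both lines (black), in line 1 (orange) and in line 2 (purple). Points are edgeR estimates and bars are 95% intervals. The interval over both lines excludes 0 only for Tk1, at -0.71 to -0.06, which did not pass the adjusted threshold.

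The lines were then compared singly. In line 1, 0 of 9 genes were called, against 3.2% of all genes (456), and in line 2, 0 of 9 against 12.5% (1776). At an unadjusted p under 0.05 edgeR called 1 of 9 in each line, Dck in line 1 (13.9% of all genes) and Samhd1 in line 2 (27.8%). DESeq2 called 0 in line 1 (5.97% of all genes) and 1 in line 2 (18.1%), which was Samhd1 at -0.56 (DESeq2 adjusted p = 0.0436). At an unadjusted p under 0.05, DESeq2 called Dck in line 1 (14.7% of all genes) and Rrm1 and Samhd1 in line 2 (29.5%). With the replicate number as a block, which pairs libraries in line 1, 242 of all genes and 0 of the 9 were called in line 1. The difference of the genotype effects between lines was called for 0 of 9 genes by edgeR and by DESeq2, against 1.29% of all genes by edgeR and 2.87% by DESeq2. At an unadjusted p under 0.05 it was called for 1 of 9 (Dck) by edgeR and for 2 of 9 (Dck and Samhd1) by DESeq2, against 8.49% and 9.14% of all genes.

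The WT lines were compared in the same way. Dck was lower in WT line 2 than in WT line 1, by -0.23 on the log2 scale (SE 0.0669, adjusted p = 0.0394), the only call among the 9 genes, where 14% of all genes were called (1998). Dut (0.29, adjusted p = 0.0872) and Rrm1 (-0.26, adjusted p = 0.101) had estimates of similar size that did not pass. The change of Dck between WT lines was larger in size than its estimate for RTF2 loss over both lines. That estimate combines -0.19 in line 1 with 0.09 in line 2. Mean Dck was 83.5 CPM in WT line 1, 71.0 CPM in WT line 2, and 73.5 and 75.6 CPM in RTF2-deficient lines 1 and 2. The WT line 1 libraries enter this comparison, the line 1 effect and the difference between lines, so these are not separate results. The Dck call was lost, with adjusted p between 0.0829 and 0.0915, without any 1 of 4 libraries: WT line 1 replicate 1 or 3, or WT line 2 replicate 1 or 2. It was also lost with the WT libraries fitted alone (adjusted p = 0.14) and with upper-quartile normalization (adjusted p = 0.0504). The line and the sex-linked difference cannot be told apart in this comparison. Between the same groups edgeR called 3 of 6 fibroblast markers, all lower in WT line 2 (DESeq2 called 4), and Cd68 was at 1.66 ± 0.214 CPM in WT line 1 and 6.72 ± 1.97 CPM in WT line 2 (SD, n = 3 libraries each). Of the 15 interferon-stimulated genes, edgeR called 4 between these groups, against 14% of all genes, and DESeq2 called 15, against 19.3%. The part of these marker and interferon-gene differences in the Dck difference was not tested.

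The extremes of Samhd1, Tk1 and Rrm1 within a group fell on the library with the highest interferon-gene level. In each of the 4 groups the library with the highest interferon-gene level had the highest Samhd1 of its group, the lowest Tk1 and the lowest Rrm1. These libraries were replicate 1 of WT line 1, WT line 2 and RTF2-deficient line 1, and replicate 3 of RTF2-deficient line 2. The other genes showed this in fewer groups: Dut and Dctd were lowest there in 3 of 4, Rrm2, Rrm2b and Tyms in 2 of 4, and Dck in 1 of 4. Dck was highest there in 2 of 4 groups and Dut in 1 of 4. Between the remaining 2 libraries of a group, Rrm1, Rrm2, Dck and Dctd were higher in the one with the higher interferon-gene level in all 4 groups, Tyms and Dut in 3 of 4, and Rrm2b, Tk1 and Samhd1 in 2 of 4. The same 4 libraries also had the lowest median log2 CPM of 10 G2/M genes in their group, at 7.51, 6.97, 7.53 and 7.30 in that order. They had the highest median log2 CPM of 14 p53 target genes in their group as well, at 7.18, 7.32, 7.21 and 7.31. Their median log2 CPM of the 23 S phase genes did not follow: it was the highest of its group in WT line 1 (6.30), the lowest in WT line 2 (6.17) and between the other libraries in RTF2-deficient lines 1 and 2 (6.04 and 6.16). After group means were subtracted, Pearson's r with the interferon-gene level over the 12 libraries was 0.81 for Samhd1, -0.78 for Tk1 and -0.64 for Rrm1. Among the genes themselves it was -0.93 between Tk1 and Samhd1, -0.87 between Rrm1 and Samhd1 and 0.89 between Rrm1 and Tk1. These are descriptions over 12 libraries in 4 groups, each value of a library sharing its depth. The part of the interferon-gene level, or of the G2/M and p53 target medians, in the members' values was not tested.

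**Figure D3:**
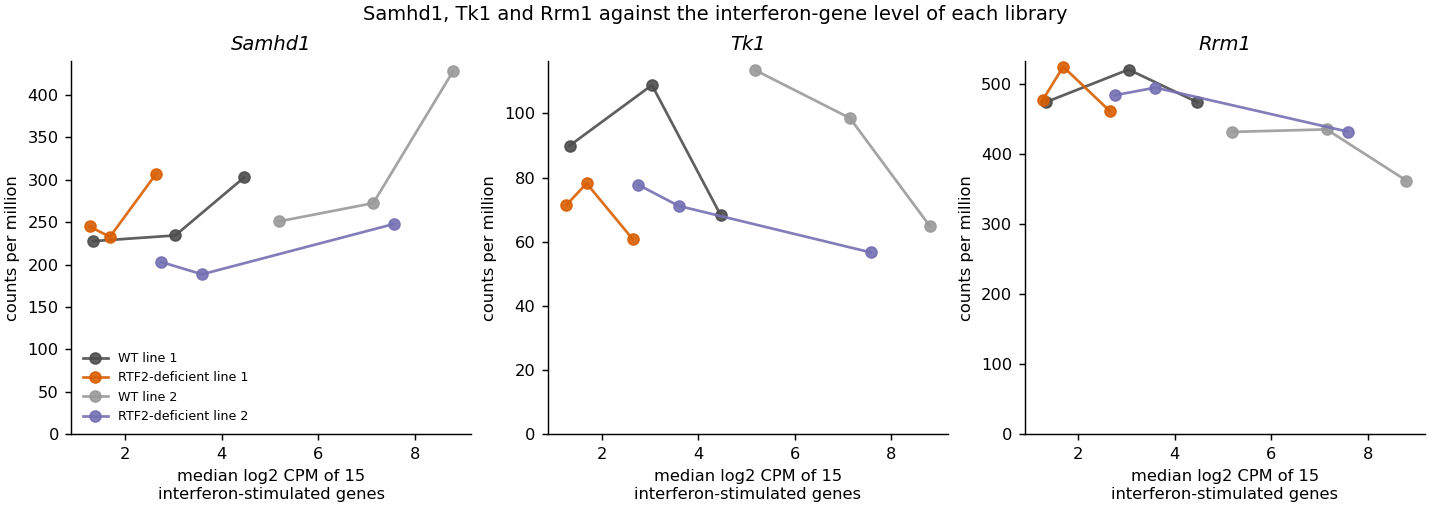
CPM of Samhd1, Tk1 and Rrm1 (vertical axes, from 0) against the median log2 CPM of 15 interferon-stimulated genes in the same library, with lines joining the 3 libraries of a group. In each group the rightmost library, with the highest interferon-gene level, has the highest Samhd1 and the lowest Tk1 and Rrm1.

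Leaving out those 4 libraries, a choice made after seeing the data, left 8 libraries and 2 in each group. The libraries left out held the lowest Tk1 and the highest Samhd1 of each group, and the lowest Dut in 3 of 4 groups, so this choice narrows the spread of these genes within groups by its construction, and their adjusted p-values are not independent support. Rrm1 was then at 0.09 over both lines (adjusted p = 0.322) and 0.17 in line 2 (adjusted p = 0.157), and Samhd1 was at -0.19 over both lines (adjusted p = 0.216). Tk1 was called over both lines at -0.46 (adjusted p = 0.00749), and it was the only one of the 9 genes called there, where 15.2% of all 14223 genes tested in that fit were called. In line 2, Tk1 (-0.51, adjusted p = 0.0175), Dut (-0.26, adjusted p = 0.0496) and Samhd1 (-0.42, adjusted p = 0.00845) were called, all lower in RTF2-deficient MEFs, where the calls over all genes rose from 1776 to 2985 (21% of those tested). Between the WT lines the call of Dck was lost (-0.18, adjusted p = 0.203) and Dut was called (0.29, adjusted p = 0.0427), where 14.1% of all genes were called. Leaving out WT line 2 replicate 1 alone gave -0.47 for Tk1 over both lines (adjusted p = 0.0409), and over all the alternatives the adjusted p of Tk1 lay between 0.00749 and 0.211. The Tk1 estimate over both lines was below 0 in each of these fits, and whether it passed the test depended on which libraries entered. In bulk RNA, fewer cells in S phase and less Tk1 RNA per cell cannot be told apart.

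**Figure D4:**
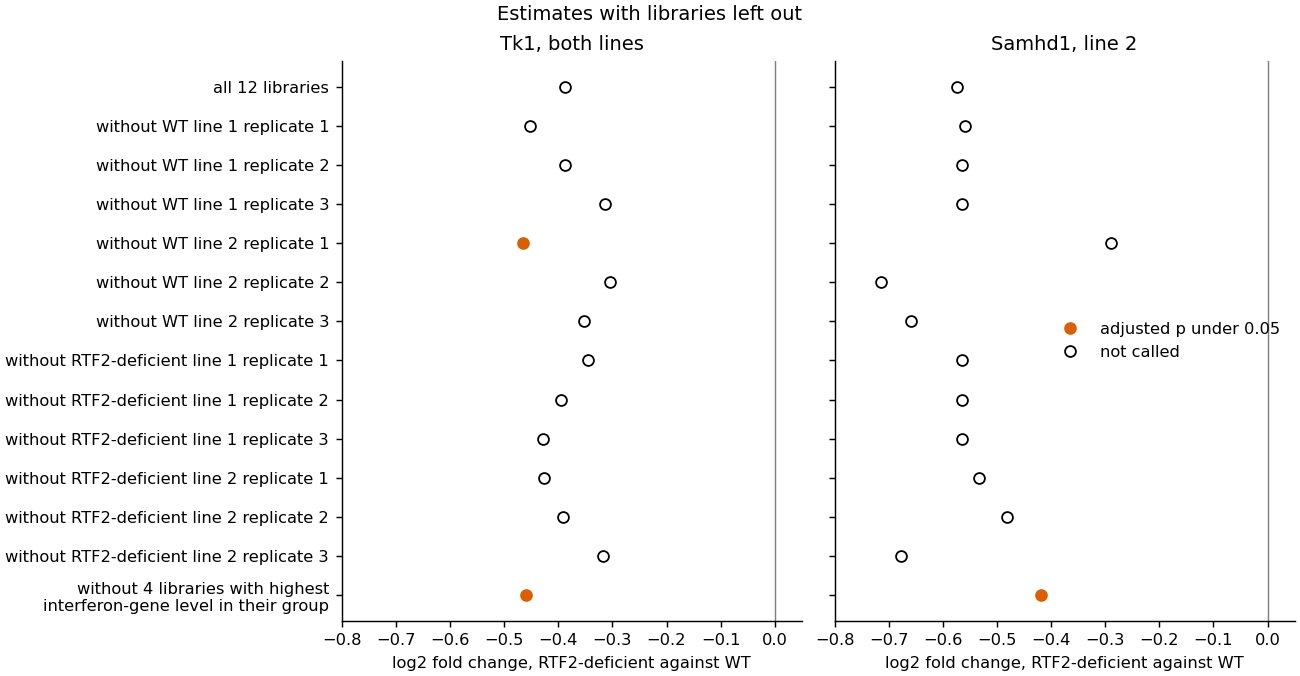
Log2 fold change of Tk1 over both lines (left) and of Samhd1 in line 2 (right) with all 12 libraries, with each library left out in turn, and without the 4 libraries of highest interferon-gene level in their group. Filled points pass an edgeR adjusted p under 0.05 and open points do not; all estimates are below 0, and Samhd1 shrinks most without WT line 2 replicate 1.

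Among 51 other genes of nucleotide supply, 6 fell and 1 rose in RTF2-deficient MEFs over both lines, and 44 did not pass the test, a share of calls near that of all genes (13.2%). Their median log2 fold change was 0.00, as for all genes. In line 1, edgeR called 0 of the 51, against 3.2% of all genes, and DESeq2 called 2, against 5.97%. At an unadjusted p under 0.05 edgeR called 8, against 13.9%. In line 2, edgeR called 3, all lower, against 12.5% of all genes, and DESeq2 called 8, against 18.1%. At an unadjusted p under 0.05 edgeR called 10 there, against 27.8%. No gene was called in both lines separately, so the genes named next were chosen after their values were seen. Without the 4 libraries of highest interferon-gene level, 13 of the 51 were called over both lines, beside 15.2% of all genes in that fit. The count of 7 was 3 without RTF2-deficient line 2 replicate 2, 4 with no line term, and 0 with each group's libraries summed, a fit of 4 samples in which 0 of all genes were called (18 of the 51 and 2737 of all genes at an unadjusted p under 0.05).

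Dtymk, Ctps2 and Cda, which act on pyrimidines, had the lowest adjusted p of the genes that fell. Dtymk, the kinase that converts dTMP to dTDP after Tk1 or Tyms, was at 43.5 ± 4.16 and 47.1 ± 5.73 CPM (SD, n = 3 libraries) in WT lines 1 and 2 and at 33.5 ± 1.87 and 32.0 ± 1.15 CPM in RTF2-deficient lines 1 and 2. Its genotypes did not overlap in either line, and the log2 fold change was -0.47 (SE 0.0729, adjusted p = 0.00137). Ctps2, a CTP synthase, fell from 44.3 ± 6.90 and 45.8 ± 5.28 CPM to 25.6 ± 4.79 and 23.1 ± 7.71 CPM (n = 3 each), a log2 fold change of -0.89 (SE 0.151, adjusted p = 0.00243). Cda, a cytidine deaminase, was low throughout, at 4.04 ± 0.864 and 6.88 ± 0.995 CPM in the WT lines and 2.28 ± 0.644 and 2.75 ± 1.08 CPM in the RTF2-deficient lines (n = 3 each), a log2 fold change of -1.08 (SE 0.214, adjusted p = 0.00645).

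The folate cycle gives thymidylate synthase its methyl donor. Of its genes, the serine hydroxymethyltransferases Shmt1 (-0.29, adjusted p = 0.0256) and Shmt2 (-0.32, adjusted p = 0.0234) fell, and Mthfd1 and Mthfd2 did not pass the test. Nt5c, a deoxynucleotidase, fell by 0.33 on the log2 scale (adjusted p = 0.0195), and Adsl, of de novo purine synthesis, was the 1 gene that rose (0.35, adjusted p = 0.0258). None of the 3 reductants of ribonucleotide reductase (Txn1, Txnrd1 and Glrx) and none of the 4 transporters was called over both lines. Cmpk2, a mitochondrial nucleotide kinase that is also an interferon-stimulated gene, had a log2 fold change of -1.69 with an SE of 0.961 (adjusted p = 0.272), and its mean in WT line 2 was 55.0 ± 71.3 CPM (SD, n = 3 libraries).

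**Figure D5:**
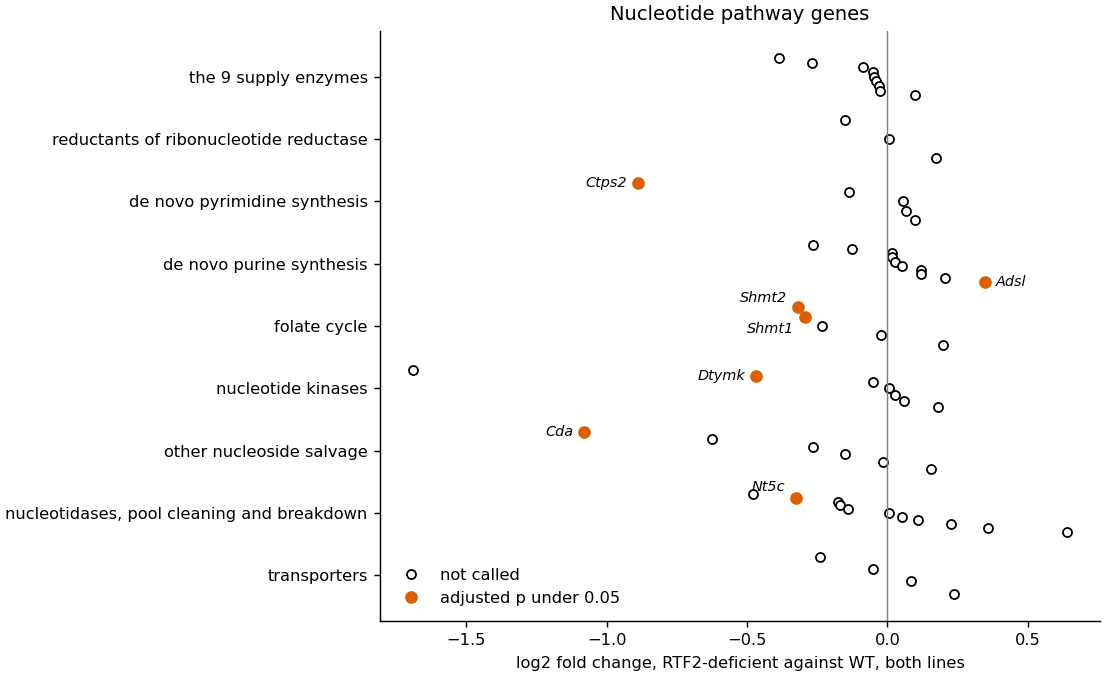
Log2 fold change of RTF2-deficient against WT MEFs over both lines for the 9 supply enzymes (top row) and 51 other nucleotide genes by function. Filled points pass an edgeR adjusted p under 0.05 and are named; 6 lie below 0 and 1 above, and none is in the top row.

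Other S phase genes were counted beside the supply genes. Of 23 such genes, 5 fell over both lines and 0 rose, where 13.2% of all genes were called, and their median log2 fold change was -0.10. Gins2, a subunit of the replicative helicase complex, was lower in both lines (-0.49, SE 0.0589, adjusted p = 0.000235), and Mcm7, of the same helicase, had a log2 fold change of -0.29 (SE 0.0474, adjusted p = 0.00202). Gins2 was at 45.3 ± 3.37 and 47.5 ± 4.12 CPM in WT lines 1 and 2 and at 32.3 ± 1.83 and 33.8 ± 1.79 CPM in RTF2-deficient lines 1 and 2 (SD, n = 3 libraries each). Of 10 G2/M genes, edgeR and DESeq2 called 0 over both lines, and 0 at an unadjusted p under 0.05. Of the 15 interferon-stimulated genes, both tools called 0 over both lines (0 by edgeR and 1 by DESeq2 at an unadjusted p under 0.05), with a median log2 fold change of -1.43. With each group's libraries summed, 13 of the 15 had an unadjusted p under 0.05, against 19.2% of all genes, and 0 passed after adjustment.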

How the data were processed

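RNA from 12 libraries of MEFs was sequenced by the authors, who deposited raw counts of reads per gene, not normalized, with 1 column per library and Entrez Gene numbers as identifiers. Salmon with tximport and UCSC mm10 models is named in the methods, whereas the submitters' notes on processing list HTSeq with mm10, and which of them made the counts was not settled. The sources used here give neither poly(A) selection nor the use of strand.

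RefSeq's annotation gave symbols for 24045 of 24100 identifiers, and GENCODE M21 gave exons and lengths. After filterByExpr by group, 14263 genes remained, which were scaled with TMM factors and fitted by glmQLFit and glmQLFTest (edgeR 4.0.16, R 4.3.3). Contrasts of the 4 group means gave the effects in single lines, their difference and the comparison of the WT lines. DESeq2 1.42.0 was an alternative. Log2 CPM used a prior count of 2. The edgeR fit was also run on simulated data, and the outcome is not given here. Totals of 39360167 to 44695002 counts put the limit of a 0 count at 3 counts, which covers counting error only.

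The members and gene lists were chosen with earlier results of these data known. All members and Rtf2 are named by rule. Other pathway genes were to be named where called in the same direction in both lines, the 3 genes most alike by Pearson's r for Rrm2, Rrm2b and Samhd1, and at most 2 examples of each other list by adjusted p. Same-numbered libraries deviated together in line 1 (r 0.625, 0.43 and 0.484) but not in line 2 (-0.587, 0.17 and -0.279), so the replicate block was read as pairing in line 1 only, where the pairing comes from the data and not from the labels. The alternatives were other normalizations and filters, DESeq2, the replicate block, no line term, summed libraries, each line or the WT libraries alone, each library left out, and other gene lengths.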

Additional observations from a re-analysis of the deposited data

Results flagged for a closer look

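The values of each of the 9 genes and the total count were examined in the 6 libraries of each genotype, 20 sets in all, for a library whose gap to its nearest neighbour took up an unusually large share of the range. Chance gives such a gap in about 5% of sets, and 2 were found. Samhd1 in WT line 2 replicate 1 was at 427.875 CPM where the next WT library was at 302.723, a gap of 0.625 of the range. That library also had the highest interferon-gene level of the 12, at 8.80. Replicate 2 of RTF2-deficient line 2 had the smallest total, 39360167 counts, where the next RTF2-deficient library had 41877556, a gap of 0.684 of the range.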

How the results depend on the processing

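For the 9 genes, 345 of the 360 estimates under alternatives other than leaving out 1 library kept their direction and side of the threshold, as did 495 of 540 with 1 library left out. For single lines and the WT lines, part of these removals took a library outside the groups compared. Such estimates could move only through the shared filter, scaling and spread. The replicate block changed the call of none of the 9 genes (Dck between the WT lines was at an adjusted p of 0.04997), and it moved a count of calls by over 1.5 times only in line 1, to 242 of all genes. The cause of the moves below was not tested.

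Over both lines, the fit without a line term called 1227 of all genes and 4 other pathway genes, and summing each group's libraries called 0 of all genes (2737 at an unadjusted p under 0.05) and 0 other pathway genes (18 unadjusted), with 4 samples in the fit. DESeq2 called 852 of all genes in line 1 and 1 of the 9 genes in line 2, against 18.1% of all genes there. It called 409 genes for the difference between lines. Between the WT lines it called 2 of the 9 (Dck and Rrm1), against 19.3% of all genes. Line 2 alone gave 969 genes. Between the WT lines, upper-quartile normalization called 0 of the 9 (adjusted p of Dck 0.0504), and the WT libraries alone called 0 of the 9 and 1258 of all genes. At an unadjusted p under 0.05, edgeR called 3 of the 9 between the WT lines, against 28.1% of all genes. Without the library of highest interferon-gene level in each group, 1 of the 9 and 13 other pathway genes were called over both lines, 3 of the 9 and 2985 of all genes in line 2, and 312 genes for the difference.

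With 1 library left out, the 9 genes gave 0 to 1 calls over both lines and 0 to 1 between the WT lines, and 0 in the other comparisons. All-gene counts ranged from 1158 to 1974 over both lines, 192 to 480 in line 1, 813 to 2372 in line 2, 66 to 164 for the difference and 1260 to 2221 between the WT lines. Other pathway genes ranged from 3 to 10. The lowest counts over both lines, in line 2 and for the difference came without RTF2-deficient line 2 replicate 2, in line 1 without RTF2-deficient line 1 replicate 2, and between the WT lines without WT line 1 replicate 2.

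Directions turned only for estimates that were not called. Rrm1 in line 1 became 0.00076 with RLE normalization, 0.000536 with no filter, 0.000756 with DESeq2 and 0.0101 without the 4 libraries of highest interferon-gene level, where Tyms in line 2 became -0.0338. With 1 library left out, the ranges that crossed 0 over both lines were -0.0628 to 0.00638 for Tyms and -0.087 to 0.0536 for Dctd. In line 1 they were -0.0682 to 0.0395 for Rrm1, -0.13 to 0.00262 for Dut, -0.0946 to 0.188 for Samhd1 and -0.245 to 0.0746 for Dctd. In line 2 they were -0.0216 to 0.0673 for Rrm2, -0.0297 to 0.0508 for Rrm2b, -0.02 to 0.0826 for Tyms and -0.0268 to 0.131 for Dctd. For the difference between lines they were -0.285 to 0.0915 for Tk1, -0.115 to 0.0362 for Dut and -0.0376 to 0.283 for Dctd. Between the WT lines they were -0.0155 to 0.139 for Rrm2, -0.125 to 0.241 for Tk1 and -0.0993 to 0.0373 for Tyms.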

Other observations

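Of 14 p53 target genes, 1 fell and 1 rose in RTF2-deficient MEFs over both lines, where 13.2% of all genes were called, with a median log2 fold change of -0.10. Bax, a pro-apoptotic gene, fell (-0.89, SE 0.0635, edgeR adjusted p = 6.56e-06) and was called in each line alone, while Pmaip1, which encodes Noxa, rose (0.41, SE 0.0833, adjusted p = 0.00791). Rrm2b, itself a p53 target by background knowledge, was not called and all 6 of its RTF2-deficient values lay within the WT range. The MEFs were immortalized with SV40, whose large T antigen is known to bind p53.

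On the scale of CPM per kilobase of the longest transcript, the order of the mean levels over the 12 libraries was Rrm2 (121), Rrm1 (84.9), Samhd1 (66.7), Dut (46.4), Tk1 (32.1), Dck (24.7), Tyms (19.4), Dctd (9.77) and Rrm2b (4.1). The ranges of the neighbours from Rrm1 to Dck overlapped, and those of Rrm2 and Rrm1, of Dck and Tyms, of Tyms and Dctd, and of Dctd and Rrm2b did not. With the union of exons as the length, Dut came before Samhd1 and Dck before Tk1. With the longest coding transcript, Dut also came before Samhd1, and the ranges of Rrm2 and Rrm1 overlapped.

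Over the 12 libraries, the log2 CPM of Rrm2 was most like that of Ercc6l (Pearson's r = 0.95), Epcam (0.935, at most 0.308 CPM and so near the floor) and Zranb2 (0.929). Rrm2b was most like Limd1 (0.885), 1110032F04Rik (0.835) and 1700091H14Rik (0.803), and Samhd1 was most like Twsg1 (0.947), Gng7 (0.946) and Jak2 (0.931). Among the members, the highest r was that of Rrm2 and Dctd (0.824), followed by Rrm2 and Tyms (0.739), and the lowest was that of Rrm1 and Samhd1 (-0.754). Rrm1 and Rrm2 had r = 0.028 over the 12 libraries and 0.615 after group means were subtracted. These are descriptions over technical replicates of 4 groups.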
